A study of Mus musculus with 6 samples.

Results

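The genes described here encode the receptor chains for granulocyte colony-stimulating factor (G-CSF), leukaemia inhibitory factor (LIF), interleukin 6 and oncostatin M: Csf3r, Lifr, Il6st, Il6ra and Osmr. They were chosen by name, with the probe sets that carry exactly 1 gene symbol, and make up 5 of the 19938 genes measured. Each is read by 1 probe set, so that no choice between probe sets was needed.

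Gene expression was measured on 6 Affymetrix mouse gene arrays, 3 per group, in total RNA from bone marrow cells of mice. The samples are titled as biological replicates, and each array was taken as 1 mouse. The mice were lethally irradiated CD45.1+ animals that had received CD45.2+ LSK cells, the stem and progenitor fraction of marrow, transduced with Meis1 in both groups. The donor cells also carried HoxA9wt-GFP in the group HoxA9wt/Meis1 and HoxA9AA-GFP in the group HoxA9AA/Meis1. Marrow was taken at the onset of disease. There was no group without the introduced genes. The labels name no strain beyond the CD45 alleles and no age, do not say what the AA form changes, and mention no sorting of donor cells, so that recipient cells may be part of the RNA. Values are on a log2 scale, where a difference of 1 is a doubling, and a positive difference means a higher value in HoxA9AA/Meis1.

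These receptors belong to the class I cytokine receptor family. They have no kinase activity of their own and signal through JAK kinases bound to their cytoplasmic parts, which phosphorylate STAT proteins, above all STAT3. The G-CSF receptor pairs with itself and drives the production and release of neutrophils. Il6st encodes gp130, the shared signalling chain that joins Il6ra for interleukin 6, Lifr for LIF, and Osmr or Lifr for oncostatin M. In marrow, gp130 is widespread, the interleukin 6 receptor is found on monocytes and other leukocytes, and the oncostatin M receptor is best known from stromal and endothelial cells.

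The 5 genes lie on 4 chromosomes, with Lifr and Osmr both on chromosome 15. The stretches before the transcription starts of Csf3r, Il6ra and Lifr are shown because Csf3r and Il6ra are the members whose groups did not overlap, in opposite directions, and Lifr is the member with the largest difference. They are the last 150 bases before the start in RefSeq (GRCm38.p6), written 5′ to 3′ on the gene's strand, with the letters GCAAT (a C/EBP half-site) and GAGGAA (an ETS core with its flank), or their reverse complements, in capitals. For Csf3r this is chr4:126024509-126024658 (plus strand), for Il6ra chr3:89913197-89913346 (minus strand) and for Lifr, at the more upstream of its 2 starts in the table, chr15:7129422-7129571 (plus strand).
Csf3r: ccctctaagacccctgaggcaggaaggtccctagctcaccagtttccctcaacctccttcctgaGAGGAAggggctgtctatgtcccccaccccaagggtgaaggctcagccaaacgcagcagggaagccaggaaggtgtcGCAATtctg
Il6ra: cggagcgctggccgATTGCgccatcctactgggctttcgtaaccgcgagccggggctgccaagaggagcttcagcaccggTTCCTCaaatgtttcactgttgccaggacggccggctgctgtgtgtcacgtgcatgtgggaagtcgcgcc
Lifr: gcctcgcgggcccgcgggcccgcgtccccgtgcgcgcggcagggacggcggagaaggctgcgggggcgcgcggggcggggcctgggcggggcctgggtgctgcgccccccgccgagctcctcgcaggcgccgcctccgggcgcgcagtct
On both strands of the 250 bases before each start, GCAAT was found in 23.1% and GAGGAA in 23.3% of all 32851 windows. Csf3r, Il6ra and Osmr each had 1 match to both, with no overlap between matches. In Csf3r the GCAAT begins 9 bases and the GAGGAA 86 bases before the start. In Il6ra they lie 136 and 70 bases before it, and in Osmr 75 and 240 bases. The windows of Il6st and of the upstream Lifr start had neither. The motifs TTCNNNGAA (STAT, in 7.02% of windows), TGACAG (MEIS, 15.9%) and TGTGGT (RUNX, 14%) matched in none of the 6 windows of the members, and TGATNNAT (HOX-PBX, 7.68%) matched only in that of the other Lifr start. Lifr's upstream window had a G+C content of 82.4%, which 0.5% of all windows exceeded, against 60.0% for Csf3r. A match of letters is a description and not a binding site.

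The arrays did not fall evenly into their groups. Across the 19938 genes, HoxA9AA replicate 2 correlated with the HoxA9wt arrays at r = 0.989 to 0.991, while HoxA9AA replicates 1 and 3 did so at 0.958 to 0.970. The HoxA9wt arrays correlated with one another at 0.987 to 0.990. HoxA9AA replicates 1 and 3 correlated with each other at 0.963, and with HoxA9AA replicate 2 at 0.966 and 0.972. Genes are not independent replicates, and these values are descriptions. Each member is therefore given for every mouse, and with and without the mouse that moves it most. As a measure of background, the 95th percentile of 1027 olfactory receptor genes lay between 6.52 and 6.72 on the 6 arrays.

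No receptor chain passed the test for a difference between the groups. With limma over all genes and Benjamini-Hochberg adjustment, 0 of the 5 members and 0 of 19938 genes (0%) had an adjusted p under 0.05. At an unadjusted p under 0.05 there were 1344 genes (6.74%), of which 4.15% of all genes were higher and 2.59% lower in HoxA9AA/Meis1, and Csf3r was the 1 member among them. The groups did not overlap for Csf3r, which was higher in HoxA9AA/Meis1, and for Il6ra, which was lower. Over all genes, the groups did not overlap with higher values for 6.6% and with lower values for 4.8%. A higher mean in HoxA9AA/Meis1 was found for 52.7% of all genes. These shares of all genes are the comparison for the counts in the lists below.

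**Figure D1:**
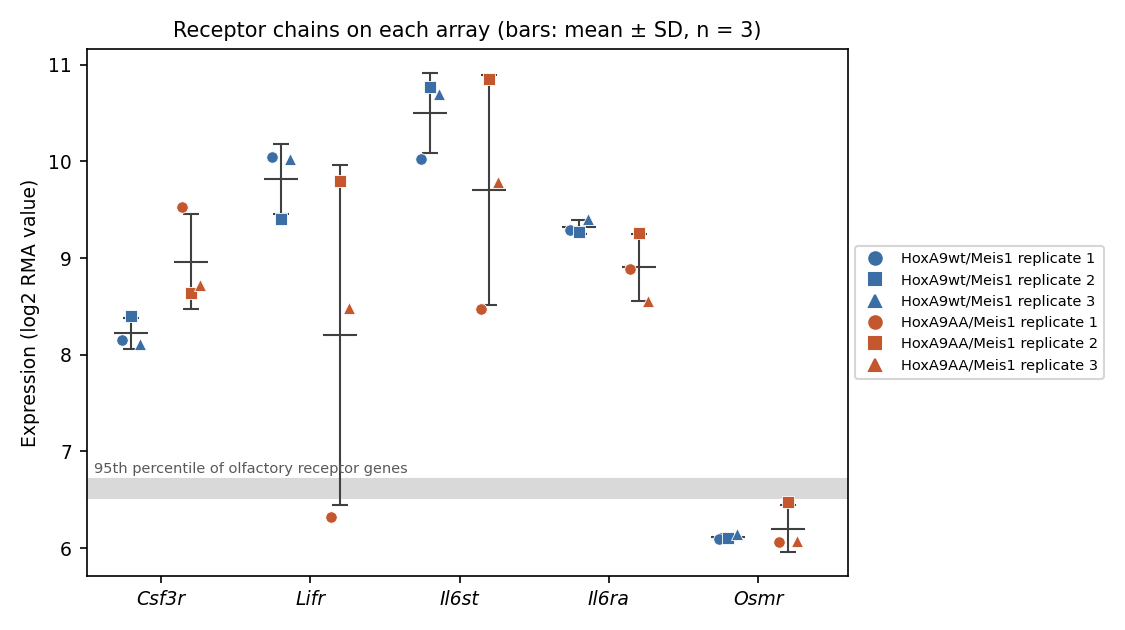
Expression (log2 RMA value, vertical axis) of the 5 receptor chains by array; each symbol is 1 mouse, bars show the group mean ± SD (n = 3), and the grey band the 95th percentile of the olfactory receptor genes (6.52 to 6.72). HoxA9AA replicate 1 is highest for Csf3r (9.53) and lowest for Lifr (6.32) and Il6st (8.47), and Osmr lies below the band on every array.

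Csf3r, the receptor for G-CSF, measured 8.15, 8.40 and 8.11 in the HoxA9wt/Meis1 mice (replicates 1, 2 and 3) and 9.53, 8.64 and 8.72 in the HoxA9AA/Meis1 mice. All 3 HoxA9AA mice lay above all 3 HoxA9wt mice, replicate 1 by far the highest, with a gap of 0.24 between the groups. The mean was 8.22 ± 0.16 (SD, n = 3) against 8.96 ± 0.49, a difference of 0.74 ± 0.25 (SE), or 1.67-fold with a 95% interval of 1.11 to 2.52 (limma, unadjusted p = 0.0210, adjusted p = 0.731). The interval is not adjusted for the number of genes. In 2.34% of all genes the difference was larger in size. HoxA9AA replicates 2 and 3 lay 0.42 and 0.50 above the HoxA9wt mean and replicate 1 lay 1.31 above it. Without replicate 1 the difference was 0.46 (limma, adjusted p = 0.697), and without replicate 2 it was 0.91 (adjusted p = 0.204).

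The mean of the neutrophil markers followed the order of Csf3r within the HoxA9wt mice but not across all 6. Csf3r is carried by neutrophils and their precursors, and the mean of 10 neutrophil markers, each taken relative to its HoxA9wt mean, was 0.55, 1.14 and −1.69 in the HoxA9wt mice and 1.26, 1.45 and −0.11 in HoxA9AA replicates 1, 2 and 3. HoxA9AA replicate 3 thus had a lower neutrophil mean than HoxA9wt replicates 1 and 2 and a higher Csf3r. Of the 10 markers 9 had a higher mean in HoxA9AA/Meis1 and 1 of them, the gelatinase gene Mmp9, an unadjusted p under 0.05. The mean of 6 markers of neutrophil precursors, such as Mpo and Elane, was 0.007, 0.28 and −0.29 in the HoxA9wt mice and 1.11, −0.03 and 0.03 in HoxA9AA replicates 1, 2 and 3. Within each group the list mean has the order of Csf3r, but not every marker has. Among the HoxA9AA mice, Mpo and Elane were higher in replicate 2 (11.62 and 10.41) than in replicate 3 (10.97 and 9.55). Prtn3, Ctsg, Ms4a3 and Gstm1 were lower in replicate 2 than in replicate 3. Among the HoxA9wt mice, Ctsg and Ms4a3 were highest in replicate 1 and the others in replicate 2. Across the groups, HoxA9wt replicate 2 (0.28) lay above HoxA9AA replicates 2 and 3, which had more Csf3r. All 6 precursor markers had a higher mean in HoxA9AA/Meis1 and 0 an unadjusted p under 0.05. The part of these cells in the Csf3r values was not tested. In bulk RNA from marrow cells, more cells of a type and more RNA per cell cannot be told apart.

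Lifr, the LIF receptor chain, measured 10.04, 9.40 and 10.02 in the HoxA9wt/Meis1 mice and 6.32, 9.80 and 8.48 in the HoxA9AA/Meis1 mice. HoxA9AA replicate 1 and replicate 3 were lower than every HoxA9wt mouse, while replicate 2 lay among them, so that the groups overlapped. Replicate 1 stood below the olfactory receptor percentile of its own array (6.72), so that its distance from the HoxA9wt mean is a limit: measured against that percentile, it was at least 8.57-fold lower. Relative to the HoxA9wt mean, replicate 3 lay at −1.34 and replicate 2 at −0.02. The means were 9.82 ± 0.36 and 8.20 ± 1.76 (SD, n = 3), a difference of −1.62 ± 0.82 (SE) with a 95% interval of −3.58 to 0.34 (limma, adjusted p = 0.746). These values use the 6.32 of replicate 1 as deposited. Only 0.251% of all genes had a larger difference in size, and only 0.266% a larger SD among the HoxA9AA mice. The difference was −0.68 without HoxA9AA replicate 1 (adjusted p = 0.703) and −2.42 without replicate 2 (adjusted p = 0.181).

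Il6st, the gp130 chain that joins Il6ra, Lifr and Osmr, measured 10.02, 10.77 and 10.70 in the HoxA9wt/Meis1 mice and 8.47, 10.85 and 9.79 in the HoxA9AA/Meis1 mice. HoxA9AA replicate 2 was the highest of all 6 mice and replicate 1 the lowest, at −2.03 relative to the HoxA9wt mean, a 4.07-fold lower value. Replicate 3, at −0.71, stood below HoxA9wt replicate 1. The means were 10.50 ± 0.41 and 9.70 ± 1.19 (SD, n = 3), a difference of −0.79 ± 0.58 (SE) with a 95% interval of −2.18 to 0.59 (limma, adjusted p = 0.834). Without HoxA9AA replicate 1 the difference was −0.18 (adjusted p = 0.909), and without replicate 2 it was −1.37 (adjusted p = 0.251). Only 1.03% of all genes varied more among the HoxA9AA mice.

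Il6ra, the ligand-binding chain for interleukin 6, measured 9.29, 9.27 and 9.40 in the HoxA9wt/Meis1 mice and 8.89, 9.26 and 8.56 in the HoxA9AA/Meis1 mice. The groups did not overlap, but HoxA9AA replicate 2 lay only 0.01 below the lowest HoxA9wt mouse, which is the last decimal of the values. Unlike for Lifr and Il6st, the lowest mouse was HoxA9AA replicate 3, at −0.76 relative to the HoxA9wt mean, with replicate 1 at −0.43. The means were 9.32 ± 0.07 and 8.90 ± 0.35 (SD, n = 3), a difference of −0.42 ± 0.18 (SE), with a 95% interval of −0.84 to 0.01 (limma, unadjusted p = 0.0546, adjusted p = 0.731). Of the 5 members, only Osmr varied less among the HoxA9wt mice. The difference was −0.25 without HoxA9AA replicate 3 (adjusted p = 0.807) and −0.60 without replicate 2 (adjusted p = 0.139).

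Osmr, the second chain of the oncostatin M receptor, stayed within the range of the background genes. It measured 6.10, 6.11 and 6.15 in the HoxA9wt/Meis1 mice and 6.06, 6.48 and 6.07 in the HoxA9AA/Meis1 mice, on each array below the olfactory receptor percentile. HoxA9AA replicate 2 was the 1 mouse apart, above the other 5. The difference was 0.08 ± 0.13 (SE; limma, 95% interval −0.23 to 0.40, adjusted p = 0.945), and 55.3% of all genes had a larger one in size. Without HoxA9AA replicate 2 its sign turned, to −0.06 (adjusted p = 0.878). At this signal a difference in Osmr could not be told from background.

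**Figure D2:**
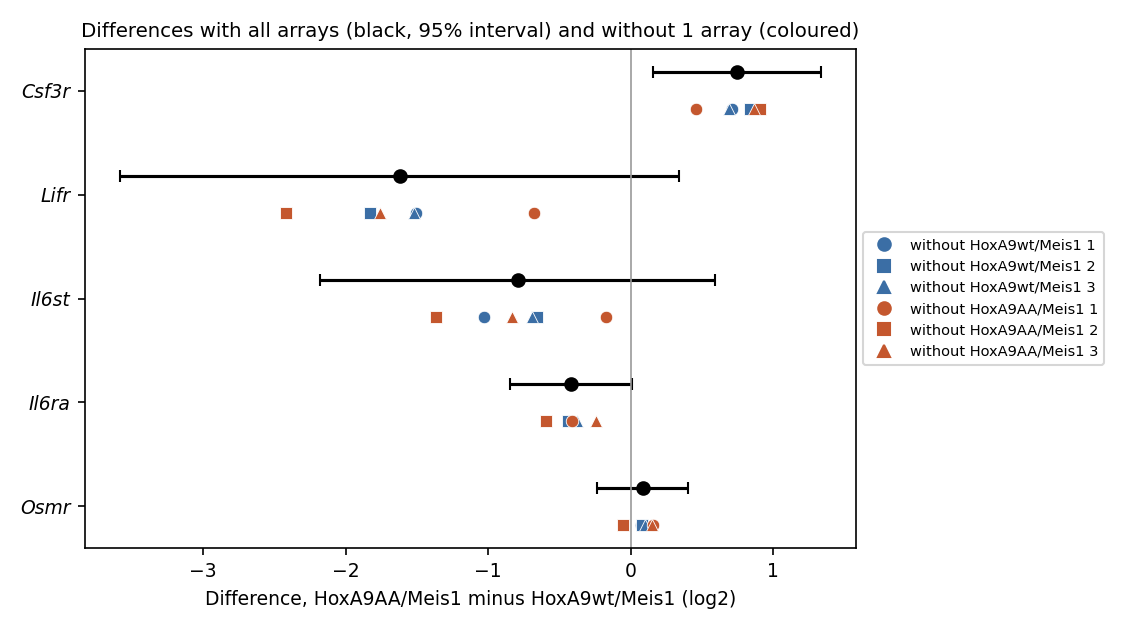
Difference between the groups (HoxA9AA/Meis1 minus HoxA9wt/Meis1, log2, horizontal axis) for each receptor chain; black points and lines are the value with all 6 arrays and its 95% interval, coloured symbols the value without 1 array. Leaving out HoxA9AA replicate 1 brings Lifr from −1.62 to −0.68 and Il6st from −0.79 to −0.18, and Csf3r stays above 0 in each case (0.46 to 0.91).

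Csf3r and Lifr ran opposite to each other over the 6 mice. Their values correlated at r = −0.949 (exact permutation p = 0.0139, two-sided) and rho = −0.886 (exact p = 0.0333). Over the 10 pairs of members the adjusted p was 0.139 for r and 0.111 for rho, so that the relation did not pass the correction. Without the 2 mice farthest from the median of Csf3r, HoxA9AA replicate 1 and HoxA9wt replicate 3, r was −0.694. Lifr and Il6st correlated at r = 0.905 (exact permutation p = 0.0361, adjusted p = 0.181) and rho = 0.486 (exact p = 0.356, adjusted p = 0.395). Without HoxA9AA replicates 1 and 3 their r was −0.542, so that the relation rested on those mice. Il6ra ranked against Csf3r at rho = −0.943 (exact permutation p = 0.0167, adjusted p = 0.0833), with r = −0.620 (exact p = 0.164, adjusted p = 0.266) and r = −0.655 without the 2 farthest mice. Il6st and Osmr gave a rho of the same size, 0.943 (exact permutation p = 0.0167, adjusted p = 0.0833; r = 0.548, exact p = 0.169, adjusted p = 0.266, and 0.522 without the 2 farthest mice), although Osmr lay in the range of background on every array. No pair passed the correction. All 10 correlations mix the difference between the groups with the spread inside them.

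Genes with the most similar pattern were sought among 2993 named genes of at least median signal and an SD of at least 0.3 over the 6 arrays (2994 for Osmr). These r values are the extremes of a search over many genes and 6 arrays, and they carry no test. Closest to Csf3r were Agap1, a GTPase-activating protein (r = 0.993), Ssbp3, a cofactor of LIM-domain transcription complexes (0.988), and Rnf144a, an E3 ubiquitin ligase (0.987), and the most opposite was Gtpbp10 (r = −0.9997). Agap1 measured 6.93 to 7.24 in the HoxA9wt mice and 8.12, 7.45 and 7.55 in HoxA9AA replicates 1, 2 and 3. Closest to Lifr were Gng10, a G protein gamma subunit (0.998), Tlr13, a sensor of bacterial ribosomal RNA (0.996), and Scpep1, a serine carboxypeptidase (0.996), with the clock gene Per3 the most opposite (−0.996). Tlr13 measured 10.96 to 11.37 in the HoxA9wt mice and 8.64, 11.11 and 10.07 in HoxA9AA replicates 1, 2 and 3. Closest to Il6st were Selenop, a secreted selenium carrier (0.993), Cenpk, a kinetochore protein (0.987), and Septin10 (0.987), with the fatty acid elongase Elovl5 the most opposite (−0.993). Closest to Il6ra were Mtm1, the phosphoinositide phosphatase myotubularin (0.997), Tlr6, a receptor for bacterial lipopeptides (0.996), and Prpf39, a splicing factor (0.994), with Gatad2a of the NuRD complex the most opposite (−0.995). Tlr6 measured 7.90 to 8.04 in the HoxA9wt mice and 7.10, 7.75 and 6.51 in HoxA9AA replicates 1, 2 and 3. That it has the order of Il6ra in these 3 mice follows from its choice by r. For Osmr the closest were Phlpp2 (0.989), Tmem144 (0.964) and Usp54 (0.938), and the most opposite was Ube2e3 (−0.964), all led by HoxA9AA replicate 2. Osmr itself lay in the range of background on every array, so these are matches to a background profile.

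On average, monocyte markers were low in the same HoxA9AA mice as Lifr and Il6st. The mean of 8 measured monocyte and macrophage markers, each relative to its HoxA9wt mean, was 0.27, −0.30 and 0.03 in the HoxA9wt mice. In HoxA9AA replicates 1, 2 and 3 it was −0.91, 0.02 and −0.44, which is the order of Lifr and Il6st in these 3 mice. Among the HoxA9wt mice it had the order of Lifr and the reverse of that of Il6st (10.02, 10.77 and 10.70). Il6ra was instead lowest in HoxA9AA replicate 3 (8.56). All 8 markers had a lower mean in HoxA9AA/Meis1, and 0 had an unadjusted p under 0.05. Csf1r, the receptor for macrophage colony-stimulating factor, measured 9.58 to 10.31 in the HoxA9wt mice and 8.81, 10.19 and 9.28 in HoxA9AA replicates 1, 2 and 3. The chemokine receptor gene Ccr2 measured 12.06 to 12.25 and 9.97, 12.05 and 11.30, and the macrophage receptor gene Adgre1 measured 10.45 to 11.21 and 9.54, 10.57 and 10.29. The pattern was not that of every marker. The complement gene C1qb measured 7.40 in HoxA9AA replicate 3 against a HoxA9wt mean of 7.36. C1qa was lowest in HoxA9AA replicate 2 (6.53), but it lay close to background, below the olfactory receptor percentile in HoxA9AA replicates 1 and 2. The chemokine receptor gene Cx3cr1 was lowest in HoxA9AA replicate 3 (7.37) and also low in HoxA9wt replicate 2 (7.59). The part of monocytes in these receptor values was not tested.

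**Figure D3:**
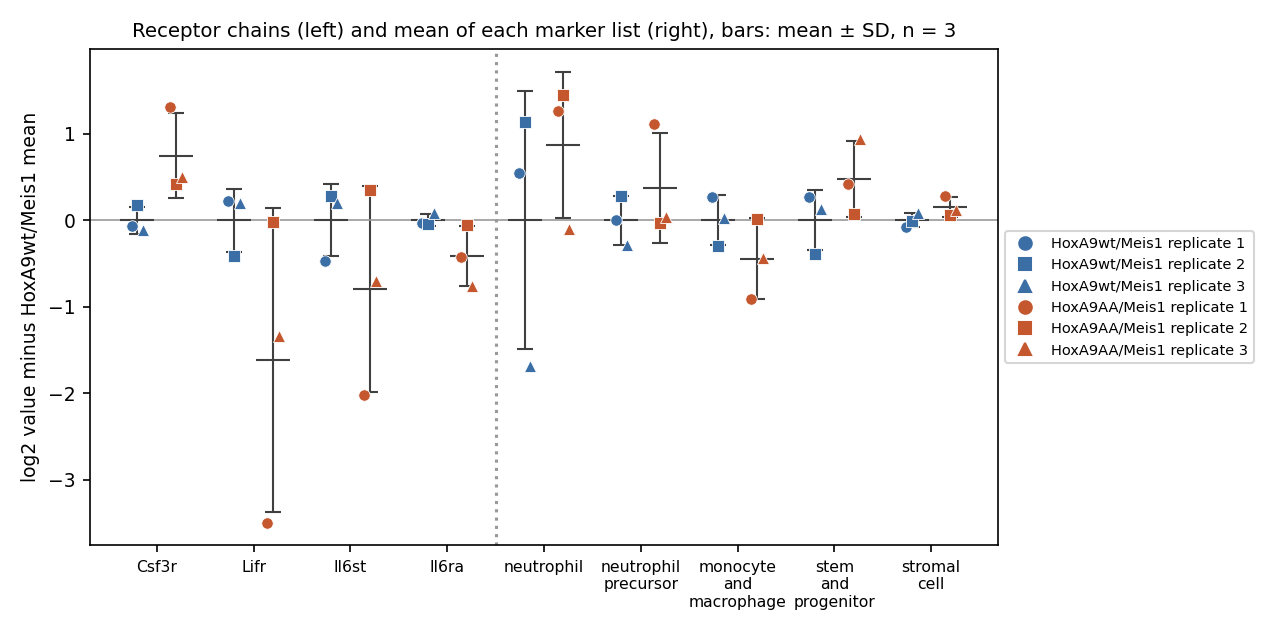
Values relative to the HoxA9wt/Meis1 mean (log2, vertical axis) for 4 receptor chains on the left and for the mean of 5 marker lists on the right; each symbol is 1 mouse, bars show the group mean ± SD (n = 3). HoxA9AA replicates 1 and 3 are low both for Lifr (values of 6.32, which is below background, and 8.48) and for the monocyte and macrophage list (−0.91 and −0.44), and the neutrophil list is lowest in HoxA9wt replicate 3 (−1.69).

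Markers of other cell types were checked in the same way. The mean of 7 stem and progenitor markers was −0.39 to 0.27 in the HoxA9wt mice and 0.42, 0.07 and 0.93 in HoxA9AA replicates 1, 2 and 3, with Kit, the stem cell factor receptor, at 9.96, 8.43 and 10.49 against 7.54 to 8.63. Of these 7 markers 6 had a higher mean in HoxA9AA/Meis1, and 2 of them, Kit and the transcription factor gene Erg, an unadjusted p under 0.05. Mecom, also among the 6, lay below the olfactory receptor percentile on every array. Flt3, the receptor of another growth factor of progenitors, had a lower mean, with 6.92 in HoxA9AA replicate 1 against 9.87 to 10.85 in the other 5 mice. Stromal cells are a source of Lifr and Osmr RNA, and the mean of 8 stromal markers lay between −0.08 and 0.08 in the HoxA9wt mice and at 0.28, 0.06 and 0.11 in the HoxA9AA mice. Among them Pdgfrb stood apart, with 8.71 in HoxA9AA replicate 1, 8.15 in replicate 3 and no more than 6.91 elsewhere, so that the mice low in Lifr were high in Pdgfrb. This 1 gene made up most of the list mean in HoxA9AA replicate 1. In replicate 3, Cxcl12, Col1a1, Col1a2, Pdgfra and Kitl lay below their HoxA9wt means, and Col3a1 and Lepr above. Of the 8 stromal markers 5 had a higher and 3 a lower mean in HoxA9AA/Meis1, and 0 had an unadjusted p under 0.05. Lepr and Kitl, which mark the stroma of marrow, lay below the olfactory receptor percentile on every array. Of 6 endothelial markers, Kdr, Emcn and Tek were below it on every array. Pecam1, which myeloid cells and platelets carry as well, measured 8.96 to 9.84 in the HoxA9wt mice and 10.88, 9.87 and 10.94 in HoxA9AA replicates 1, 2 and 3 (limma, unadjusted p = 0.0122, adjusted p = 0.731). All 6 erythroid markers had a lower mean in HoxA9AA/Meis1, with HoxA9wt replicate 2 alone high (list mean 0.73, against −0.75 to −0.25 in the other 5 mice). All 4 megakaryocyte markers had a lower mean too, with the same mouse high (0.68 against −0.44 to −0.19). The B cell markers had a higher mean in 5 of 5, with list means of −0.09 to 0.08 in the HoxA9wt mice and −0.06, 0.33 and 0.26 in the HoxA9AA mice, and the T and NK cell markers in 3 of 6. None of these 4 lists held a gene with an unadjusted p under 0.05. Of the lymphoid lists, Cd79a and Ms4a1 of 5 B cell markers, and Klrb1c and Ncr1 of 6 T and NK cell markers, were below the olfactory receptor percentile on every array. Of the 6 erythroid markers, Klf1 and Gata1 were below it on every array, and only 1 stood above it on all arrays.

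The ligands of these receptors were measured for 9 of 11 listed genes. None passed the test, 5 had a higher and 4 a lower mean, and the median difference was 0.02 against 0.01 over all genes. Only 4 of the 9 stood above the olfactory receptor percentile on all arrays, so that for most of them the arrays give little more than background. Csf3, which encodes G-CSF, stood at 6.09 ± 0.18 for HoxA9wt/Meis1 against 6.11 ± 0.05 (SD, n = 3), and Il6 3.71 ± 0.14 and 3.64 ± 0.08. Lif differed by −0.12, and Il11, another gp130 cytokine, by 0.17 with groups that did not overlap, but all 4 of Csf3, Il6, Lif and Il11 lay below that percentile on every array. Ebi3, a subunit of dimeric interleukins, differed by 0.12. Osm, the ligand of oncostatin M receptors, measured 6.79 to 7.53 and 6.89 to 7.37.

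Other receptors of the family lay within 0.30 of no difference. Of 7 measured genes 3 had a higher and 4 a lower mean, 0 passed the test, 0 had non-overlapping groups and the median was −0.02. Il12rb1, a chain of the interleukin 12 and 23 receptors, differed by 0.30. Below or close to background were Lepr, the leptin receptor, with a difference of 0.22, Il23r with 0.22 and Il27ra, which pairs with gp130, with −0.03. Il12rb1 stood above background on all arrays, at 7.01 to 7.27 in HoxA9wt/Meis1 and 7.13 to 7.61 in HoxA9AA/Meis1.

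The kinases and signal transducers below the receptors were present in all mice, and their differences were small beside those of Lifr. All 11 measured genes stood above background on every array, 0 passed the test, 1 had an unadjusted p under 0.05 in each direction, and the median difference was 0 against 0.01 over all genes. Stat3, the main STAT of these receptors, measured 9.96 ± 0.08 and 10.03 ± 0.13 (SD, n = 3), a difference of 0.07 with a 95% interval of −0.17 to 0.31. Jak1, the kinase most closely tied to gp130, measured 11.32 ± 0.11 and 11.25 ± 0.09 (interval of the difference −0.31 to 0.16), and Jak2 differed by −0.14, which became 0 without HoxA9AA replicate 1. Tyk2, a kinase that also binds gp130, measured 7.28, 7.22 and 7.28 in the HoxA9wt mice and 7.40, 7.51 and 7.61 in the HoxA9AA mice. Its groups did not overlap and the difference was 0.25 (limma, unadjusted p = 0.0306, adjusted p = 0.731). Sos1, the exchange factor that links receptors to Ras, measured 8.53, 8.57 and 8.43 in the HoxA9wt mice and 8.21, 8.32 and 8.10 in the HoxA9AA mice. Its groups did not overlap either, with a difference of −0.30 (unadjusted p = 0.0178, adjusted p = 0.731). Stat5a differed by 0.21 (0.13 without HoxA9AA replicate 3).

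No inhibitor, and neither of the proteases that shed receptors, passed the test. Of 13 genes 6 had a higher and 7 a lower mean, 0 had an unadjusted p under 0.05 and the median was −0.003. Socs3, the feedback inhibitor of gp130 and of the G-CSF receptor, measured 7.14, 7.30 and 7.60 in the HoxA9wt mice and 7.24 in each HoxA9AA mouse. Adam10, a protease that can release the interleukin 6 receptor from the cell surface, measured 10.49 to 11 in the HoxA9wt mice and 9.94, 10.60 and 10.22 in the HoxA9AA mice, lowest in replicate 1. Its difference was −0.45 (adjusted p = 0.731), and that of Adam17, the sheddase best known for this receptor, −0.10. Ptprc, the phosphatase CD45 of all leukocytes, differed by −0.41 and had the groups 11.79 to 11.99 and 11.14 to 11.88. Without HoxA9AA replicate 1, Adam10 differed by −0.29 and Ptprc by −0.25. Adam10 differed by −0.30 without HoxA9wt replicate 1, and Ptprc by −0.62 without HoxA9AA replicate 2. Socs2 differed by 0.21 (0.09 without HoxA9AA replicate 3, 0.41 with the mean of its probe sets) and Pias3 by 0.11 (0.073 without HoxA9AA replicate 1).

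Genes that textbooks name as targets of STAT3 or STAT5 had no common direction, 8 of 15 measured with a higher and 7 with a lower mean, 0 passing the test and a median of 0.01. At an unadjusted p under 0.05 there were 0 higher and 2 lower, against 4.15% and 2.59% of all genes. Mcl1, a survival protein of neutrophils and other cells, measured 11.05, 10.85 and 11.26 in the HoxA9wt mice and 10.40, 10.83 and 10.38 in the HoxA9AA mice. The groups were 0.02 apart at their nearest mice, and the difference was −0.52 (limma, unadjusted p = 0.0185, adjusted p = 0.731). Fos, an immediate early gene, measured 6.89, 6.73 and 7.55 in the HoxA9wt mice and 6.52, 6.58 and 5.95 in the HoxA9AA mice, a difference of −0.71 (limma, unadjusted p = 0.0335, adjusted p = 0.731) that was −0.46 without HoxA9wt replicate 3. In HoxA9AA replicates 1 and 3 Fos lay below the olfactory receptor percentile of the array, so that the size of its difference is a limit. Of the 15 genes 12 stood above that percentile on all arrays. Myc differed by 0.47 and was highest in HoxA9AA replicate 1 (11.47), without which it differed by 0.27. Cebpd, a C/EBP factor of the G-CSF response, differed by 0.39 and was also highest in HoxA9AA replicate 1, at 8.33 against 7.21 to 7.61 in the other 5 mice, as Csf3r was, and without this mouse it differed by 0.13. Osm, Socs3 and Cish stand on 2 of the lists.

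**Figure D4:**
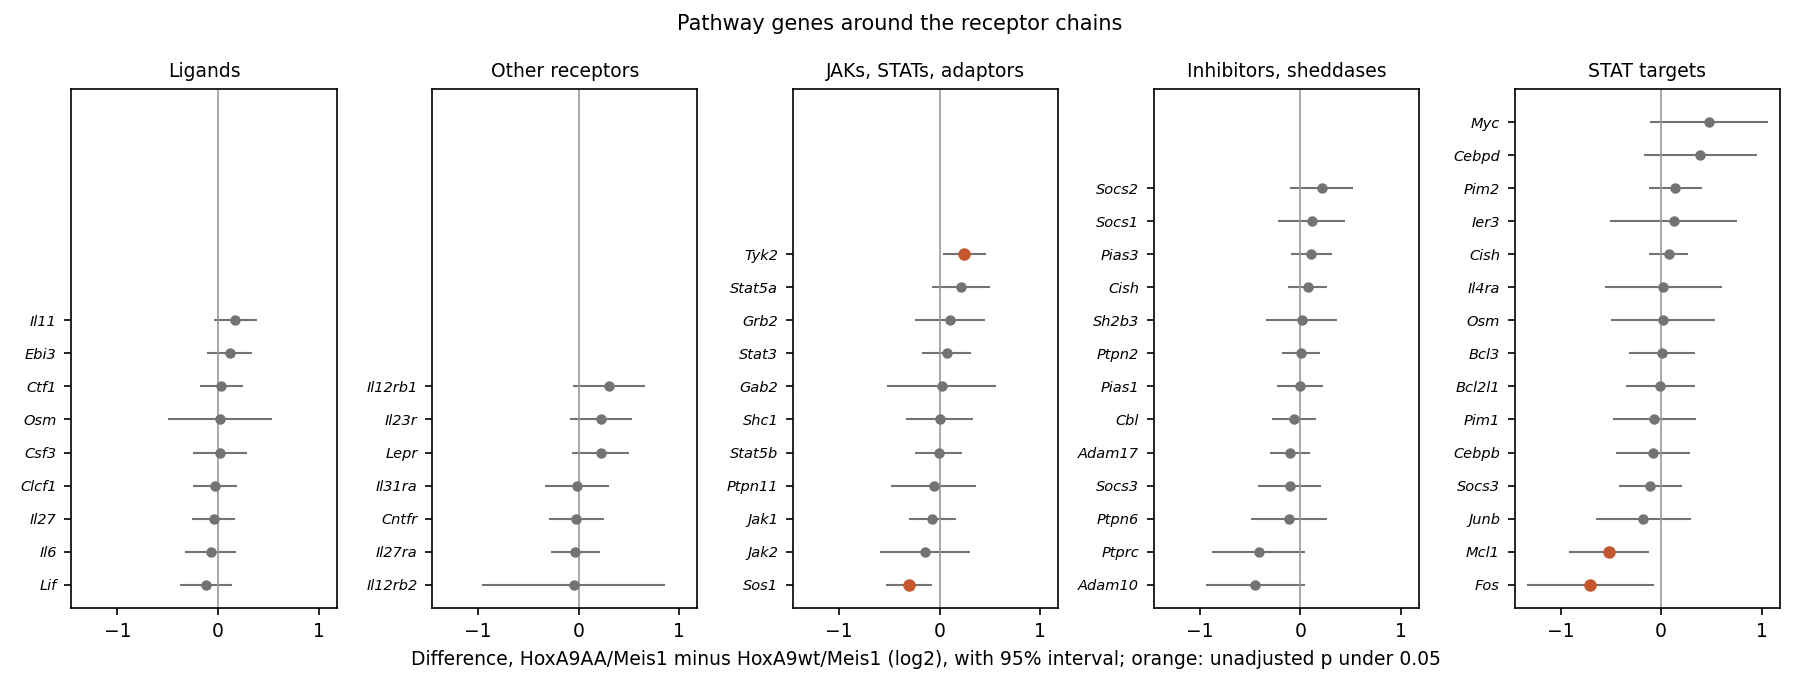
Differences between the groups (HoxA9AA/Meis1 minus HoxA9wt/Meis1, log2, horizontal axis) with 95% intervals for the measured genes of 5 lists around the receptor chains; orange points have an unadjusted p under 0.05. Those are Tyk2 and Sos1 among the signal transducers and Mcl1 and Fos among the STAT targets, each with an adjusted p of 0.731, and Fos lies below background in 2 of the HoxA9AA mice.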

How the data were processed

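Per the submitters' processing notes, the deposited log2 values were made by the authors with the R package oligo and RMA (background correction, quantile normalization between arrays, probe set summary). Of their versions and annotation, nothing is given in the sources used here. That the scale is log2 was taken from the range of the values, which have 2 decimals. RMA gives no detection call, so that olfactory receptor genes served as a measure of background. Arrays give no counts, and the number of mice limits the precision. The sample titles call the samples biological replicates and name no mouse.

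Probe sets were named from the platform annotation. Of 35556, 21789 had 1 symbol, 1621 had more than 1 (not used), and 12146 were unnamed there. The brightest probe set per gene left 19938 genes. Both groups entered 1 fit with limma 3.58.1 under R 4.3.3 (lmFit, eBayes, two-sided, Benjamini-Hochberg over all genes, threshold 0.05), tested on simulated data. Correlations between members used exact permutation tests. Alternatives tried were a block for the replicate number, each array left out in turn, 2 filters on low values, 2 other treatments of probe sets, quantile normalization, median centring and 3 variance models. Figures were drawn with matplotlib 3.10.9.

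The members, gene lists and tests were chosen with earlier results of these data known. Text names the 5 members, the 4 genes of each pathway list with the smallest p, and for each member the 3 genes with the highest and the 1 with the lowest Pearson r. Csf3, Osm, Jak1, Stat3, Socs3 and Adam17, and the single marker genes, were named outside this rule for their roles. Promoter sequences are from RefSeq (GRCm38.p6), which held all 5 members. Listed genes without a value here were not analysed.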

Additional observations from a re-analysis of the deposited data

How the results depend on the processing

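Csf3r (0.63 to 0.77), Lifr (−1.65 to −1.14), Il6st (−0.79 to −0.59) and Il6ra (−0.42 to −0.39) kept their direction in every alternative with all 6 arrays, and none of the 5 members passed the threshold in any alternative. Leaving out 1 array, the ranges were 0.46 to 0.91, −2.42 to −0.68, −1.37 to −0.18 and −0.60 to −0.25, and −0.055 to 0.155 for Osmr, which turned to −0.055 without HoxA9AA replicate 2, where Il27ra also changed sign (0.055, in a range of −0.08 to 0.055). Among the other named genes of the pathway, the differences of Ebi3 (0.06), Lif (−0.192 to −0.042), Il6 (−0.148 to −0.0083), Lepr (0.11), Jak2 (−0.29 to 0) and Stat5a (0.33) also moved by over 1.5 times with 1 array left out. Filters on low values left out Osmr. The count of genes with an adjusted p under 0.05 was 0 with all arrays and 0 to 48 with 1 array left out, 1 without HoxA9wt replicate 3 and 48 without HoxA9AA replicate 2, the array most like the HoxA9wt arrays. At an unadjusted p under 0.05 the 1344 genes became 607 to 2801, and 892 among genes at or above the median signal. Genes with non-overlapping groups, 2272 with all arrays, numbered 3362 to 5645 with 1 array fewer, where fewer values have to be apart. Median centring moved the share of higher genes at an unadjusted p under 0.05 from 61.6% to 72.4%. With array weights the median of the ligand list was −0.079 and that of the other receptors 0.14. Among genes at or above the median signal, which leaves fewer list members, the other receptors had a median of 0.14 and the inhibitors −0.083. With 1 array left out, medians ran from −0.075 to 0.03 for ligands, −0.018 to 0.188 for other receptors and −0.052 to 0.0083 for inhibitors. The cause of these shifts was not tested.

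With the replicate number as a block, 0 genes passed, 1117 had an unadjusted p under 0.05, and the adjusted p of Csf3r was 0.891 and that of Il6st 0.904. The unadjusted p of Il6st was 0.0554 with the block and 0.2145 without it (limma). Same-numbered arrays did not deviate together (r = −0.208, −0.103 and −0.013 over genes), so the number was not taken as a pairing.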

Other observations

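The chromosomal neighbours of Lifr and Il6st had medians near 0 in HoxA9AA replicate 1. Among the 20 nearest measured genes of at least median signal around Lifr on chromosome 15, 10 on each side in the gene order of GRCm38.p6, the median distance from the HoxA9wt mean was −0.06 in HoxA9AA replicate 1, where Lifr itself lay below background and at least 8.57-fold under its HoxA9wt mean. The lowest of them was Fyb, an adaptor of leukocytes, at −1.28. In HoxA9AA replicate 3 the median around Lifr was −0.36. Around Il6st on chromosome 13 the medians were −0.05 and −0.03 in replicates 1 and 3, with neighbours between −1.62 and 1.01 in replicate 1 and between −4.21 and 0.82 in replicate 3. Around Csf3r on chromosome 4 they were −0.01 and 0.11, and around Il6ra on chromosome 3 they were 0.08 and 0.06. Osmr lies next to Lifr in this order of measured genes.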
